A study of Mus musculus with 12 samples.

Results

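The effect of a Zrf1 knockdown was examined in mouse embryonic stem cells labelled as an Id1 knockout. The 4 samples titled Id1KO_Zrf1KD were compared with the 4 titled Id1KO, which are 8 of the 12 samples of the study, over every non-control probe of a one-colour (Cy3) mouse expression array, by gene name. Per the labels, both groups carried the Id1 knockout and were grown in medium with 15% serum and leukaemia inhibitory factor. The Id1KO_Zrf1KD cells had in addition received a lentiviral short hairpin against Zrf1 and had been selected with puromycin, while the labels name no hairpin, transduction or selection for the Id1KO cells. Transduction and selection therefore go with the knockdown and cannot be told apart from it. The labels describe the 4 samples of a group as independent biological samples and do not say whether they came from separate lines or transductions. The remaining 4 samples were wild type (WT). They served to estimate the spread between arrays, in the choice of the probes tested, and as a level beside some genes.

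Zrf1 is a J-domain protein that partners with Hsp70 at the ribosome, and in the nucleus it binds histone H2A ubiquitinated by Polycomb repressive complex 1 and is known to displace that complex from genes during differentiation. Its gene is listed on the array as Dnajc2. Id1 lacks a DNA-binding domain and, as a helix-loop-helix protein, blocks basic helix-loop-helix transcription factors; in embryonic stem cells it acts downstream of BMP signals. Embryonic stem cells kept in serum and leukaemia inhibitory factor express the core pluripotency factors, and they leave this state through ERK signalling, which also induces immediate early genes such as those of the Egr and Fos families.

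Levels are given as log2 of the processed signal relative to the array's 75th percentile, so that 0 is the 75th percentile and each unit is a factor of 2. The knockdown was read first at its target. Dnajc2 read 1.81, 2.0, 1.96 and 1.8 on the Id1KO arrays and -0.34, -0.28, -0.15 and -0.30 on the Id1KO_Zrf1KD arrays, so all 4 knockdown arrays lay below all 4 controls. This is 4.47-fold lower (log2 fold change -2.16 ± 0.07, SE; limma adjusted p = 9.7e-10). Dnajc2 had a single probe (chromosome 5, 21272454 to 21272513, mm9), which stayed well above background on all 4 knockdown arrays. Id1 read 1.33, 1.58, 0.86 and 1.13 in Id1KO and 0.62, 0.60, 0.92 and 0.57 after the knockdown; the groups overlapped, and the log2 fold change was -0.55 ± 0.15 (adjusted p = 0.0077). The Id1 probe (chromosome 2, 152563083 to 152563142, mm9) carried signal above background on all 8 arrays of cells labelled as knockout. On the WT arrays it read 0.74, 0.64, 1.01 and 1.05. Its signal was thus not lower in Id1KO than in WT, with means of 1.23 and 0.86. Since no label states which part of Id1 was deleted, the probe does not check the knockout.

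The difference between the groups was broad. Of 22590 genes tested, 7294 (32.3%) were higher and 8988 (39.8%) were lower after the knockdown at an adjusted p under 0.05. At least 2-fold higher were 1618 genes (7.16%) and at least 2-fold lower 2978 (13.2%); with quantile normalization this split was 1995 against 2201. The excess of lower over higher genes was not kept by the other scalings, which gave 8035 higher and 7676 lower with quantile normalization, 7970 and 7641 with normexp and 7990 and 7588 with the deposited values. The 4 values of one group lay wholly above those of the other for 6920 genes higher (30.6%) and 8242 lower (36.5%). Over all genes the log2 fold change had a median of -0.09, or of about 0.00 to 0.01 with quantile normalization, with normexp background correction and in the authors' deposited values, so small losses seen in the main scaling can turn into no change in the others. Named genes and uncharacterised features went different ways. Of 13682 genes with a symbol, 6010 rose and 4047 fell, with a median of 0.11, whereas of 8908 features known by a locus, clone or transcript identifier, Gm and Rik genes included, 1284 rose and 4941 fell, with a median of -0.51. With the other scalings the medians were 0.12 to 0.16 for genes with a symbol and -0.27 to -0.15 for the rest. A further contrast is detection: 360 genes were well above background on none of the 4 Id1KO arrays and all 4 knockdown arrays, and 250 showed the reverse.

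**Figure D1:**
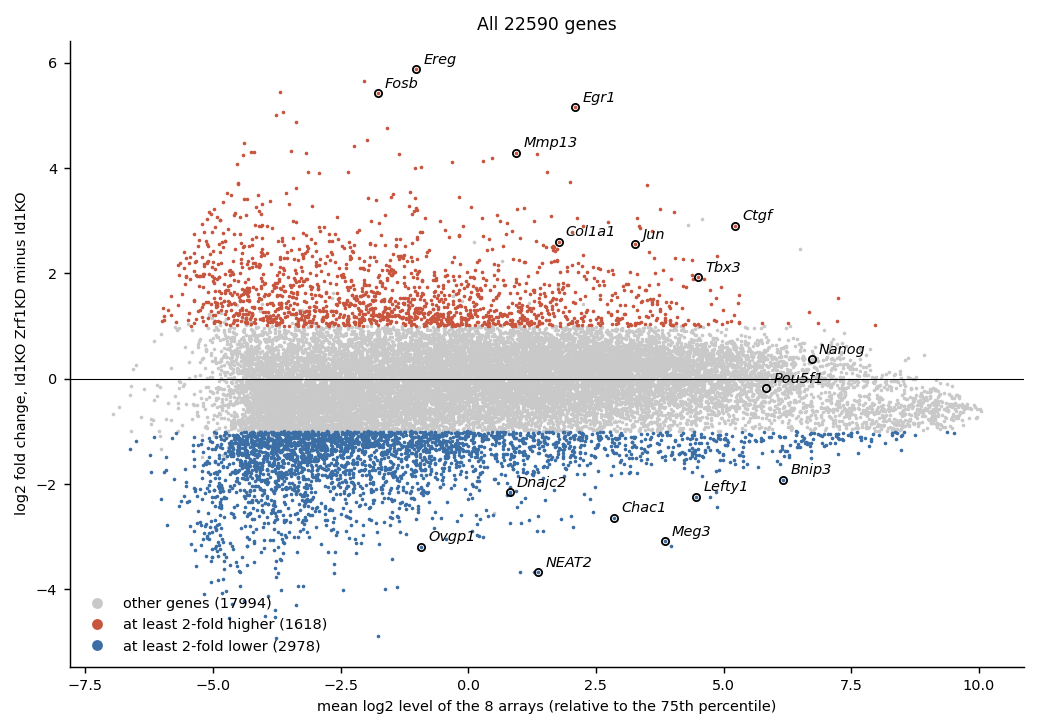
Log2 fold change (Id1KO_Zrf1KD minus Id1KO) of each of the 22590 genes against its mean log2 level over the 8 arrays; each point is a gene, with the 1618 genes at least 2-fold higher and the 2978 at least 2-fold lower in colour. Ereg, Fosb and Egr1 lie at the top, NEAT2 (Malat1) and Meg3 at the bottom, and Pou5f1 and Nanog near 0.

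Array brightness went with the groups: Id1KO arrays had a 75th percentile of 393.3 to 491.8 units and Id1KO_Zrf1KD arrays one of 554.0 to 596.5, without overlap, and its part in the results was not tested. Levels correlated across genes with r of 0.987 to 0.993 within Id1KO, 0.993 to 0.996 within the knockdown and 0.954 to 0.960 between the groups. The 8 arrays lay on 3 slides, each with both groups. The gene lists below hold 1055 genes in all, of which 1047 are on the array and 961 passed the filter on dim probes; some genes stand in more than one list. The filter admits a gene that is above background on all arrays of any 1 group, WT included, so the counts hold some genes that were dim in both groups compared (68 over all genes). They also hold genes that passed only through the group where they are high, and for these the filter favours a difference. Of the 360 genes detected on no Id1KO array and all 4 knockdown arrays, 325 passed the test higher and 0 lower. A count over the genes that passed therefore describes them and does not support a direction. Each count is to be read beside the 32.3% of all genes higher and 39.8% lower. For genes dim in one group the size of a fold depends on the background correction. Where a fold is over 1.5 times the smallest that the other scalings gave, that smallest value follows as "down to". Where no array of a group was well above background, the fold is a lower bound ("at least") that holds for the processed signal.

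Immediate early genes, many of which encode transcription factors, are switched on within minutes by growth factor and ERK signals. They had one of the highest list medians. Of 25 members measured, 23 rose, 21 of them at least 2-fold, Klf10 fell, and Jund did not pass (log2 fold change 0.07, or 0.14 with an adjusted p of 0.04 without Id1KO replicate 1); the median was 1.91, against -0.09 for all genes. Within the 3 slides the list's median was 1.82, 1.87 and 1.86. Egr1, a zinc finger factor induced by ERK and SRF, read -0.47, -0.46, -0.52 and -0.50 in Id1KO and 4.57, 4.65, 4.74 and 4.70 after the knockdown. It moved from below the 75th percentile to far above it on every array, which is 35.6-fold (log2 fold change 5.15 ± 0.06; adjusted p = 3.1e-12). Its paralogs Egr2 and Egr4 were not well above background on any Id1KO array. A further paralog, Egr3, is on the array but did not pass the filter on dim probes, nor did Nr4a3 and Zfp36 of this list. Egr2 was at least 38.4-fold higher (down to 10.4) and Egr4 at least 21.5-fold (down to 5.97). Egr2 has a value on only 3 of the Id1KO arrays. Nab2, a corepressor that Egr factors induce and that holds them in check, read -0.74, -0.87, -0.76 and -0.80 in Id1KO and 3.55, 3.46, 3.40 and 3.49 in the knockdown, a 19.3-fold rise (adjusted p = 5.5e-12). Its second kept probe gave a log2 fold change of 3.21.

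Most AP-1 subunits in the list rose, with Jund, given above, as the exception. Fosb read -4.38, -5.77, -4.06 and -3.75 in Id1KO, where only 1 of 4 arrays was well above background, and 1.04, 1.10, 0.70 and 0.91 after the knockdown (43.0-fold, down to 10.4; adjusted p = 1.0e-07). Fos, the prototype of the family, read -3.27, -3.28, -3.64 and -3.45 against -0.51, -0.49, -0.29 and -0.35 (8.01-fold, down to 4.0). Jun, its usual partner, was well expressed before the knockdown, at 1.95, 2.04, 1.94 and 2.05, and reached 4.61, 4.59, 4.50 and 4.48, a 5.87-fold rise (adjusted p = 2.4e-11). The groups did not overlap for any of these genes. Among the slower members of the family, Fosl1 rose 8.42-fold (down to 3.36) and Fosl2 9.42-fold (down to 5.37), and Junb rose 3.12-fold. Outside AP-1, the orphan nuclear receptor Nr4a1 rose 4.76-fold, Arc, an activity-regulated gene best known from neurons, 4.77-fold, and Srf, which itself drives immediate early genes, 3.75-fold.

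**Figure D2:**
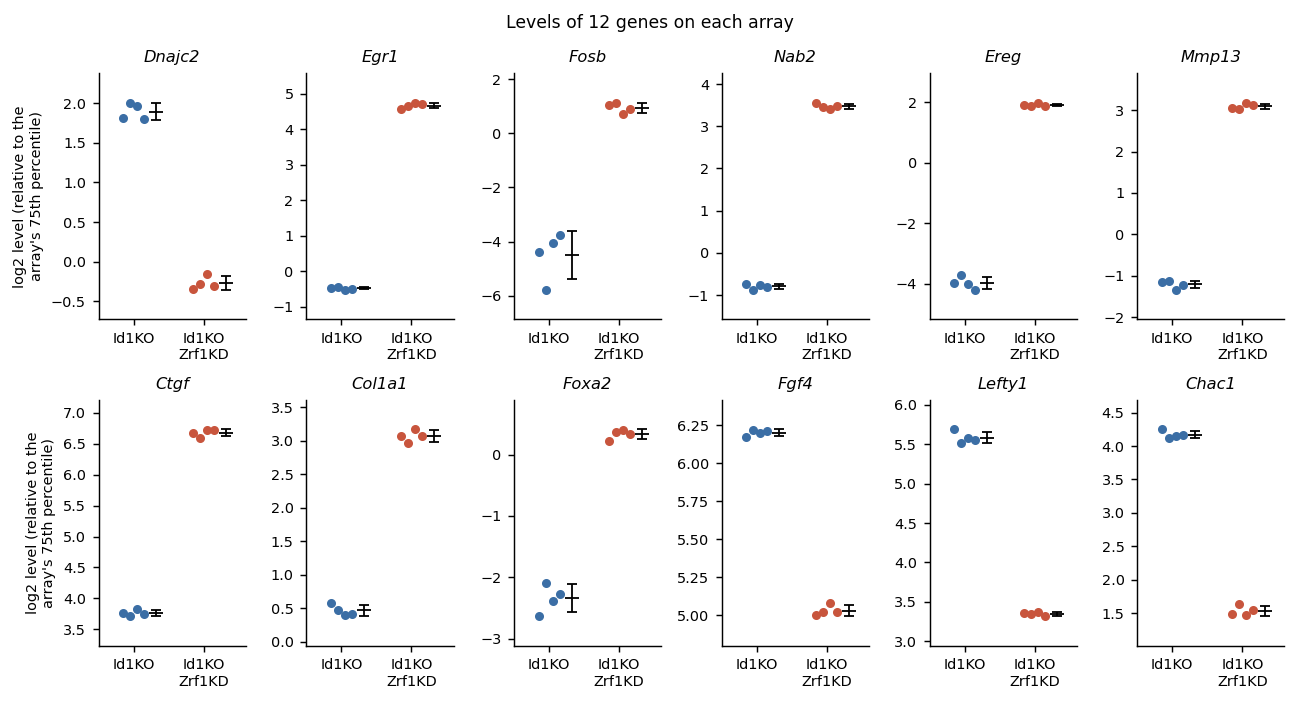
Log2 level relative to the array's 75th percentile of 12 genes on each of the 4 Id1KO and 4 Id1KO_Zrf1KD arrays (points), with the mean and SD of each group (black bars); each panel has its own axis. The groups do not overlap in any of the 12 panels, with Dnajc2, Fgf4, Lefty1 and Chac1 lower and the others higher after the knockdown.

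Ligands upstream of ERK rose as well. Of the 10 genes of the EGF family and its receptors and sheddases, 8 rose, 5 of them at least 2-fold, and Egf fell 1.79-fold (down to 1.14), with a list median of 0.98. Ereg, which encodes epiregulin, a ligand of the EGF receptor, had the highest fold of the named genes measured in both groups. It read -3.96, -3.71, -3.99 and -4.19 in Id1KO and 1.92, 1.89, 1.98 and 1.88 after the knockdown (58.9-fold, down to 19.8; adjusted p = 1.3e-10). The other ligands Hbegf (4.37-fold), Areg (3.82-fold, down to 2.40) and Nrg1 (3.30-fold) rose, and the receptor Egfr rose 2.36-fold, with log2 fold changes of 0.80 to 0.96 for its other probes. Among 27 genes of the FGF, PDGF, VEGF and KIT families and their receptors, 18 rose and 4 fell, with a median of 0.74. Fgfbp1, a carrier that releases FGFs from the matrix, rose 11.4-fold (down to 5.77), the receptor tyrosine kinase Axl 4.75-fold, Fgf7 4.19-fold and Pdgfra 2.75-fold. Fgf4, the main autocrine FGF of embryonic stem cells, went the other way and is described with the pluripotency genes.

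Genes that feed back on ERK were less uniform. Of 25 members, 17 rose and 4 fell, with a median of 0.57, and 8 rose at least 2-fold. Phlda1, an early ERK-responsive gene, rose 7.51-fold (adjusted p = 3.3e-11), the ERK phosphatase Dusp5 5.27-fold (down to 2.14, and with 2 of 4 Id1KO arrays above background), and Errfi1, an inhibitor of EGF receptors, 4.09-fold. Dusp6, the phosphatase that is a common readout of ERK activity, read 3.16, 3.24, 3.22 and 3.17 in Id1KO and 4.10, 4.06, 4.11 and 4.11 in the knockdown, a smaller but non-overlapping rise of 1.86-fold (adjusted p = 3.8e-08). Etv4, an ETS factor downstream of FGF signals, rose 2.03-fold and Spry2 rose 1.78-fold. Spry1, a sprouty inhibitor, fell 1.59-fold and Braf, a kinase of the cascade itself, fell 1.53-fold.

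Secreted proteases and their inhibitors, many of them textbook AP-1 targets, were the next group. Of 27 measured, 25 rose, 18 at least 2-fold, and 1 fell (Mmp11, log2 fold change -0.59); the median was 1.52. The proximal promoters of 3 matrix metalloproteinases are shown because AP-1, whose subunits are given above, is known to bind the motif they share: each holds 1 match to the AP-1 motif TGAGTCA, searched on both strands so that TGACTCA also counts. The sequences are the 250 bases before the RefSeq start site (GRCm38.p6), 5′ to 3′ along the gene, with the match in capitals. They come from the plus strand at chr9:7445572-7445821 (Mmp3), chr9:7502092-7502341 (Mmp10) and chr9:7272264-7272513 (Mmp13).
Mmp3: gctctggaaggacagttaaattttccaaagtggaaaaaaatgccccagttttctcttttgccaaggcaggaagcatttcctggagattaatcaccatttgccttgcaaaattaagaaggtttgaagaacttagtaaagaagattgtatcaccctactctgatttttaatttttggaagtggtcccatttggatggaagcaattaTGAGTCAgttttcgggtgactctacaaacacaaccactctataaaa
Mmp10: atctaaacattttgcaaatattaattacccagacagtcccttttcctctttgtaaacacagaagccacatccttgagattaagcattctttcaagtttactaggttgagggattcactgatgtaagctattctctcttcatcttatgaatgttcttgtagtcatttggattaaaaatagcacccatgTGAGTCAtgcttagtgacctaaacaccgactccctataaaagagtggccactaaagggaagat
Mmp13: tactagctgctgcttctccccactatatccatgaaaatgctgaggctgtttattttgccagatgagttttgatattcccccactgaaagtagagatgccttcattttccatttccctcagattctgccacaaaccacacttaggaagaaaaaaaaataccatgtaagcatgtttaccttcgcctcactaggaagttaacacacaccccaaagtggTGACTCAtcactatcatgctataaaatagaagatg

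The match begins 46 bases before the start of Mmp3, 63 before that of Mmp10 and 35 before that of Mmp13. The fourth member of the list with a match is Plaur, the urokinase receptor, 69 bases before its start, out of 18 members that matched a promoter by symbol. For scale, 501 of the 12021 tested genes that matched a promoter (4.17%) hold the motif in this window. So do 70 of 1074 genes at least 2-fold higher (6.52%) and 29 of 777 at least 2-fold lower (3.73%). Over the whole promoter table the share is 4.46%, counted per promoter and not per gene. A match is a description of these letters and not a measured binding site. None of the 20 immediate early genes with a promoter holds it (Egr1 had no promoter to search), while 5 of 20 cytokine genes do (Cxcl10, Il11, Il6, Lif and Tnfaip3). Lists that did not mainly rise hold it too: 4 of 18 interferon-stimulated genes and 3 of 25 oxidative phosphorylation subunits. Of the fibrillar collagen and cross-linking genes, which rose, 1 of 9 holds it.

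The levels of these genes separated the groups clearly. Mmp3 (stromelysin) read -0.48, -0.41, -0.37 and -0.42 in Id1KO and 3.50, 3.48, 3.44 and 3.60 in the knockdown (15.2-fold; adjusted p = 7.7e-12). Mmp13, a collagenase, read -1.15, -1.13, -1.33 and -1.22 against 3.05, 3.02, 3.17 and 3.12 (19.6-fold; adjusted p = 6.7e-12). Mmp10 read -4.07, -4.45, -3.41 and -4.0 against 0.80, 0.74, 0.80 and 0.80 (27.1-fold, down to 9.20), with 3 of 4 Id1KO arrays above background. Every knockdown array was above every control for all 3. In the plasminogen system, which activates such proteases, Plaur rose 5.63-fold and Plau was at least 3.24-fold higher (down to 1.62). Protease inhibitors rose too: Timp2 rose 9.03-fold and Serpinb2 5.97-fold (down to 2.65). Spp1, the secreted phosphoprotein osteopontin, rose 4.85-fold.

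Srf and actin-linked genes rose in the same samples. The Srf promoter is shown because it holds 2 matches to the CArG box, the element that SRF itself binds; the 250 bases lie on the minus strand at chr17:46556163-46556412 (RefSeq, GRCm38.p6), with both matches in capitals.
Srf: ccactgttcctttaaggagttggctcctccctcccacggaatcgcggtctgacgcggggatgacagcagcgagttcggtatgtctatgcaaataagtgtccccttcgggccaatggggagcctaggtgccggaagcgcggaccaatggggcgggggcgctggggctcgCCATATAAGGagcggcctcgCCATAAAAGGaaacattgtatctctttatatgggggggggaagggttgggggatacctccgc

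The matches begin 82 and 62 bases before the start. The same box was searched on both strands. It occurs in this window for 1.55% of the tested genes with a promoter and 2.14% of those at least 2-fold higher. Of the 25 immediate early genes measured, 20 matched a promoter, and of these only Srf and Egr2 hold the box. Egr1 had no promoter to search. In the list of TGF-beta, SRF and YAP genes, 4 of 20 with a promoter hold it (Acta1, Cnn2, Myl9 and Vcl). Srf read 1.45, 1.5, 1.6 and 1.5 in Id1KO and 3.43, 3.37, 3.33 and 3.55 in the knockdown (adjusted p = 7.7e-10); its second probe gave a log2 fold change of 1.43. Of 26 genes of the TGF-beta pathway and of SRF and YAP targets, 23 rose, 16 at least 2-fold, and Skil fell (log2 fold change -0.77, with 0.04 for its second probe); the median was 1.43 and lay between 1.35 and 1.45 within the slides. Ctgf, a matricellular YAP target, read 3.77, 3.72, 3.83 and 3.74 against 6.67, 6.60, 6.72 and 6.72 (7.51-fold; adjusted p = 6.1e-12). Cyr61, of the same family, rose 13.3-fold, Thbs1 (thrombospondin), an activator of latent TGF-beta, 12.8-fold, and Ankrd1, another YAP target, 8.32-fold. Lats2, the Hippo kinase that YAP induces, rose 10.8-fold (down to 6.61), with a log2 fold change of 1.24 for its second probe. The ligand Tgfb1 rose 4.09-fold and the receptor Tgfbr2 5.72-fold, and the actin-binding vinculin gene Vcl had a log2 fold change of 1.3 and Acta2, smooth muscle actin, of 2.0.

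Cytokine and chemokine genes followed. Of 24 measured, 21 rose, 16 at least 2-fold, none passed the test lower, and the median was 1.48. Ptx3, a soluble pattern recognition molecule, read -3.64, -3.41, -3.62 and -3.35 in Id1KO and 0.76, 0.71, 0.80 and 0.80 in the knockdown (19.3-fold, down to 8.24). Il1rl1, the IL-33 receptor, rose 23.1-fold (down to 6.97, with 2 of 4 Id1KO arrays above background), while its ligand Il33 rose 3.77-fold (down to 1.85, also with 2 of 4 Id1KO arrays above background). Csf1, the macrophage growth factor, rose 7.95-fold, Cxcl5 5.41-fold and Il6 4.20-fold. Genes of the leukaemia inhibitory factor pathway, which keeps these cells undifferentiated, were among them: Lif was at least 4.61-fold higher (down to 1.89), the oncostatin M receptor Osmr rose 9.78-fold (down to 5.88), Socs3, a feedback inhibitor, had a log2 fold change of 1.03, and the receptor chains Lifr and Il6st had 0.31 and 0.39.

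Extracellular matrix genes rose in 3 lists. Of 20 fibrillar collagen, fibrillin and cross-linking genes, 18 passed the filter and these rose, 16 at least 2-fold, with a median of 1.91 (1.48 with normexp). Col1a1, a chain of type I collagen, read 0.58, 0.47, 0.40 and 0.42 in Id1KO and 3.07, 2.96, 3.17 and 3.07 after the knockdown (6.06-fold; adjusted p = 1.1e-10). The cross-linking enzyme Lox rose 11.6-fold (down to 6.86) and the matrix protein Fbln2 7.02-fold. Of 18 integrin and adhesion genes 16 rose, with a median of 1.15; the laminin-binding Itga7 rose 3.92-fold, Itgb3 3.91-fold and Cd44, the hyaluronan receptor, 3.66-fold. Of 20 basement membrane and parietal endoderm genes, 16 rose, Lama5 fell (log2 fold change -0.30), and the median was 1.07. Col4a1 read 1.06, 0.97, 1.18 and 1.05 against 3.47, 3.45, 3.31 and 3.46 (5.13-fold), its partner Col4a2 rose 5.67-fold, and Lama1, the laminin chain of the early embryo, went from 3.60, 3.81, 3.65 and 3.76 to 5.92, 6.06, 6.09 and 6.04 (5.01-fold). Thbd (thrombomodulin), a surface protein of parietal endoderm, rose 17.5-fold.

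Markers of fibroblasts moved with these matrix and protease genes. Of 18 listed, 16 passed the filter and these rose, 14 at least 2-fold, with a median of 2.15 (1.47 with normexp and 1.51 with the deposited values); some, such as Col1a1, Col1a2 and Col3a1, are also matrix genes counted above. Dcn (decorin) rose 10.9-fold, the mesenchymal transcription factor Prrx1 5.83-fold (down to 3.72) and Thy1 3.17-fold. The summed linear level of 18 markers, in units of the array's 75th percentile, was 24.8 to 26.1 in Id1KO and 88.9 to 93.7 in the knockdown. Of these 18, 13 were above background on all Id1KO arrays and 16 on all knockdown arrays, with Dpt and Tcf21 dim in both and Lum dim in Id1KO. In bulk samples, more cells of a type and more RNA per cell cannot be told apart, and the part of these markers in the results was not tested. The summed level of 12 endothelial markers was 45.0 to 49.9 in Id1KO and 47.1 to 50.9 in the knockdown, and that of 14 blood markers (13 on the array) was 8.41 to 10.3 and 9.93 to 11.1, so both overlapped.

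**Figure D3:**
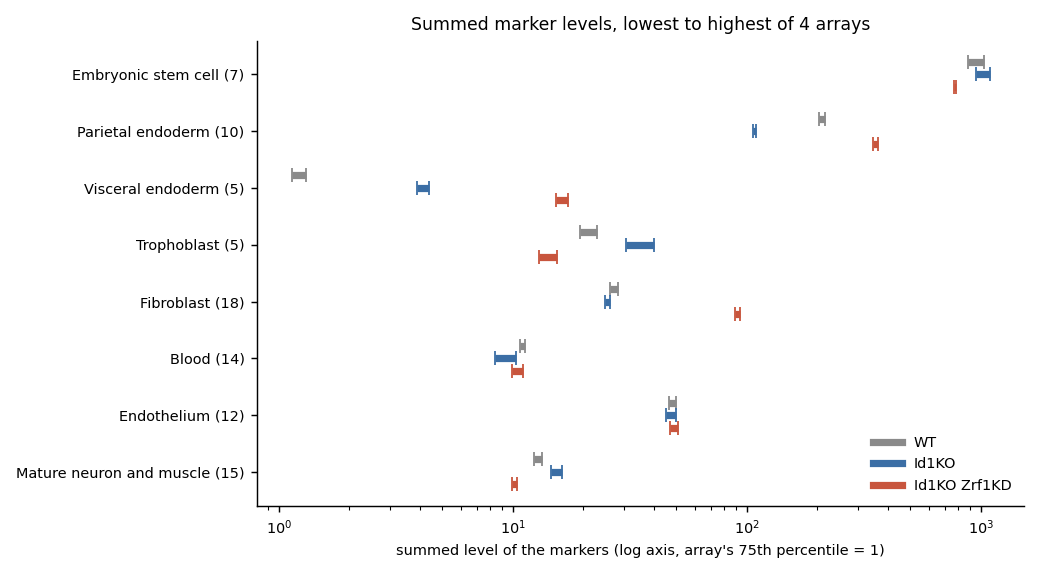
Summed linear level of cell type markers (log axis, in units of the array's 75th percentile; number of markers in brackets), drawn from the lowest to the highest of the 4 WT, 4 Id1KO and 4 Id1KO_Zrf1KD arrays. The parietal endoderm, visceral endoderm and fibroblast sums lie higher after the knockdown than in Id1KO, the embryonic stem cell, trophoblast and neuron and muscle sums lower, and the endothelial and blood sums overlap. Dppa5a leads the embryonic stem cell sum, Gcm1 the trophoblast sum and Snap25 the neuron and muscle sum.

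Lineage regulators came next. Of 13 endoderm transcription factors, 11 rose, 7 at least 2-fold, and none fell, with a median of 1.19 (0.89 with the undetected genes at their bounds). Foxa2, a pioneer factor of definitive and visceral endoderm, read -2.63, -2.09, -2.39 and -2.27 in Id1KO and 0.23, 0.37, 0.41 and 0.33 in the knockdown (6.43-fold; adjusted p = 3.0e-09). Gata6, the primitive endoderm factor, read -0.94, -1.14, -1.14 and -0.98 against 0.65, 0.78, 0.70 and 0.88 (3.50-fold; adjusted p = 5.6e-09), Gata4 rose 3.34-fold and Sox7 3.67-fold. Their groups did not overlap. Of 14 secreted and endocytic proteins of visceral endoderm, 12 rose, with a median of 1.26: Cubn, an endocytic receptor, rose 4.35-fold, Apob 4.19-fold (down to 2.67) and Dab2, an endocytic adaptor, 3.05-fold. The sum of 5 visceral endoderm markers was 3.90 to 4.37 in Id1KO and 15.3 to 17.3 after the knockdown, with Apoa1 dim in both groups and Afp dim in Id1KO; the sum of 10 parietal endoderm markers was 106 to 110 and 348 to 362.

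Trophoblast and mesoderm genes were mixed. Of 19 trophoblast and simple epithelium genes, 15 rose and 3 fell, with a median of 0.90. Cdx2, the trophectoderm factor, read -6.96, -5.35, -6.38 and -5.69 in Id1KO, where no array was above background, and -2.87, -2.64, -2.74 and -2.45 in the knockdown, at least 4.51-fold higher (down to 2.02). Gata3 rose 6.31-fold (down to 2.93, with 3 of 4 Id1KO arrays above background), Tead4, which acts with YAP upstream of Cdx2, 5.05-fold and the keratin Krt8 3.32-fold. Gcm1, a factor of labyrinth trophoblast, fell 2.65-fold by its brightest probe, but its other 3 probes gave log2 fold changes from -1.90 to 1.35. The trophoblast marker sum, which Gcm1 leads, was 30.4 to 40.0 in Id1KO and 12.9 to 15.4 in the knockdown, with Tpbpa dim in both. Of 23 primitive streak and mesoderm genes, 11 were too dim to be kept; of the 12 kept, 7 were higher and 3 lower, and 3 of these 12, T and Evx1 among them, were above background in the knockdown and on no Id1KO array. T (brachyury), the streak marker, was not well above background on any Id1KO array and read -3.23, -3.76, -3.42 and -3.28 in the knockdown, at least 2.24-fold higher (down to 1.38), and Evx1 was at least 5.94-fold higher (down to 2.41), whereas Tbx6, of presomitic mesoderm, fell 2.70-fold (down to 1.5) and Wnt8a 2.01-fold.

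The core pluripotency factors changed little beside these. Pou5f1 (Oct4) read 5.97, 6.23, 5.37 and 6.12 in Id1KO and 5.58, 5.78, 5.81 and 5.82 in the knockdown; the groups overlapped and the log2 fold change was -0.18 ± 0.17 (adjusted p = 0.36). Without Id1KO replicate 3 it was -0.37 (adjusted p = 0.015). Sox2 fell 1.18-fold, from 3.35, 3.40, 3.49 and 3.47 to 3.08, 3.18, 3.19 and 3.29 (adjusted p = 0.0020). Nanog rose 1.29-fold, from 6.53, 6.60, 6.50 and 6.53 to 6.93, 6.89, 6.96 and 6.86 (adjusted p = 6.0e-05), although its second probe gave a log2 fold change of -0.16 and the mean of both probes did not pass (0.10, adjusted p = 0.11). Of 20 general pluripotency genes, 9 rose and 6 fell, with a median of 0.05. The RNA-binding Lin28b fell 1.80-fold and Sall4, a partner of Oct4, rose 1.6-fold. The sum of 7 embryonic stem cell markers was 951 to 1090 in Id1KO and 771 to 786 in the knockdown, and all 7 were above background on every array. The largest part of this sum is Dppa5a. Dppa5a read 9.46, 9.65, 9.44 and 9.57 in Id1KO and 8.87, 8.88, 8.85 and 8.86 in the knockdown. The fall of the sum rests on this gene, which fell 1.59-fold, a call that was lost with the other 3 scalings (down to 1.07). Nanog and Zfp42, the next largest in the knockdown, rose (log2 fold changes of 0.37 and 0.28).

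Naive and formative genes parted. Of 20 naive pluripotency genes, 15 rose, 6 at least 2-fold, and 2 fell, with a median of 0.34 against -0.09 for all genes. Tbx3, a naive factor that is also linked to extraembryonic endoderm, read 3.51, 3.59, 3.46 and 3.55 against 5.38, 5.45, 5.55 and 5.46 (3.82-fold; adjusted p = 3.3e-10). The naive factors Klf5 (2.71-fold), Tcfcp2l1 (2.69-fold), Nr5a2 (2.44-fold), Esrrb (1.57-fold) and Klf4 (1.47-fold) rose as well. The 2 that fell were Tdgf1, a Nodal coreceptor, with a log2 fold change of -0.96, and Fgf4, which went from 6.17, 6.22, 6.20 and 6.21 to 5.0, 5.02, 5.08 and 5.02 (2.25-fold lower; adjusted p = 9.7e-10).

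Of 18 formative and primed epiblast genes, 11 fell, 5 at least 2-fold, and 3 rose, with a median of -0.61 that lay between -0.71 and -0.54 within the slides and at -0.53 with quantile normalization. Lefty1, a secreted Nodal antagonist, read 5.69, 5.52, 5.58 and 5.55 in Id1KO and 3.35, 3.34, 3.37 and 3.32 in the knockdown (4.73-fold lower; adjusted p = 4.3e-11). Its paralog Lefty2 fell 2.63-fold and Otx2, which drives the exit to the formative state, went from 5.14, 5.26, 5.11 and 5.20 to 3.94, 4.12, 4.09 and 4.10 (2.16-fold lower). Car14, a carbonic anhydrase, fell 6.31-fold (down to 2.95), Lef1 2.03-fold and Dnmt3b, a de novo DNA methyltransferase, 1.61-fold. Fgf5, the usual marker of this state, did not pass (log2 fold change 0.11, or 0.15 to 0.23 and past the test with the other scalings), and Foxd3 rose 1.85-fold.

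**Figure D4:**
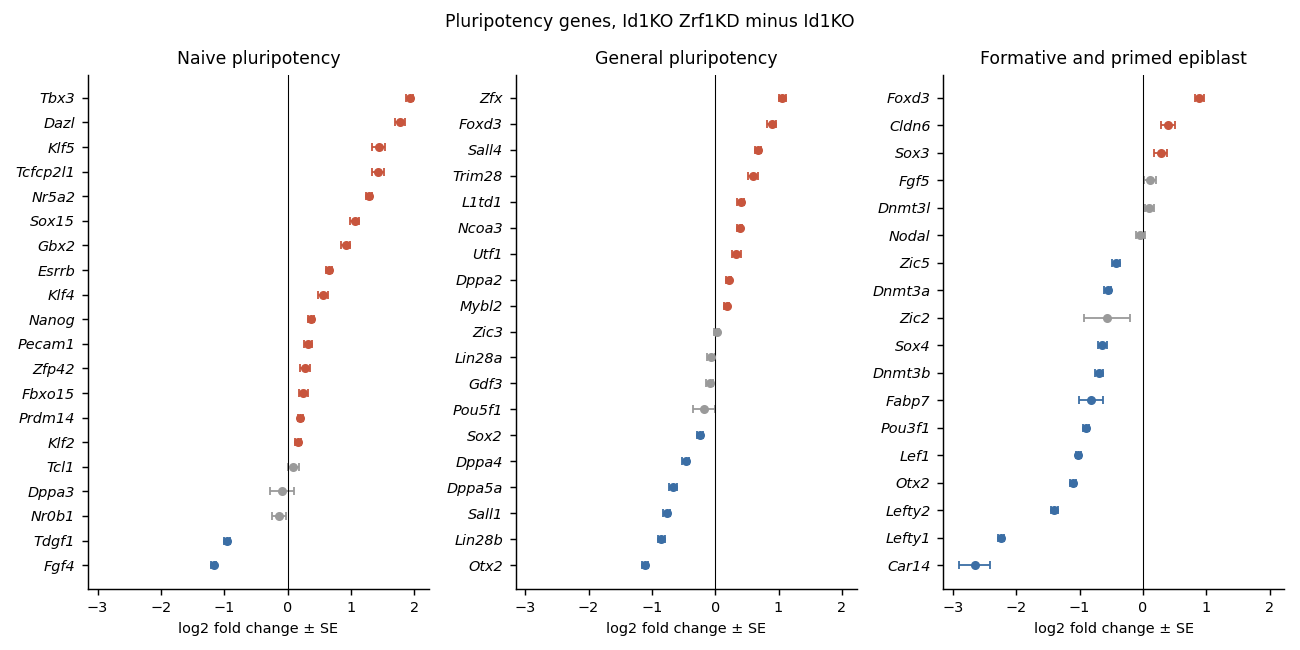
Log2 fold change (Id1KO_Zrf1KD minus Id1KO, with its SE as the bar) of the naive, general and formative pluripotency genes measured, apart from Tcf3, which is not drawn. Points in colour passed an adjusted p of 0.05 and grey points did not. Most naive genes lie to the right of 0 and most formative genes to the left, with Fgf4 and Foxd3 among the exceptions.

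Levels of the 3 groups are set side by side for some genes without a test, since a comparison of Id1KO with WT shares the Id1KO arrays. Lefty1 averaged 2.53 ± 0.07 (SD, n = 4) in WT, 5.59 ± 0.07 in the knockout and 3.34 ± 0.02 in the knockdown. Otx2 was 2.43 ± 0.06, 5.18 ± 0.07 and 4.06 ± 0.08 in the same order, and Tbx3 was 5.32 ± 0.09, 3.53 ± 0.05 and 5.46 ± 0.07. For these 3 genes the knockdown level lay on the WT side of Id1KO. Other genes did not follow that order: Fgf4 was 7.01 ± 0.05, 6.20 ± 0.02 and 5.03 ± 0.04, Dusp6 was 1.21 ± 0.10, 3.20 ± 0.04 and 4.09 ± 0.03, and Id3, a paralog of Id1, was -0.30 ± 0.08, 2.19 ± 0.10 and 4.0 ± 0.08.

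Of 16 neural progenitor genes, 6 rose and 7 fell, shares close to the 32.3% and 39.8% of all genes, with a median of -0.11 that was 0.08 with quantile normalization. Pax6 read -1.92, -2.0, -1.97 and -2.07 in Id1KO and -3.39, -3.29, -3.71 and -3.17 in the knockdown (2.64-fold lower, down to 1.47; adjusted p = 2.3e-04), and Sox1, the earliest neural plate factor, went from -1.79, -2.04, -1.63 and -1.33 to -3.17, -2.61, -3.48 and -2.26 (2.27-fold lower, down to 1.45; adjusted p = 8.9e-04). Neither overlapped. Irx3, a neural patterning factor, rose 2.10-fold and Nes (nestin) 1.77-fold. The sum of 15 mature neuron and muscle markers was 14.6 to 16.3 in Id1KO and 9.93 to 10.4 in the knockdown. Snap25, which leads this sum, fell 2.73-fold, whereas of the 10 that passed the filter 5 rose and 3 fell, with a median of 0.32. In the list of cadherins and regulators of epithelial to mesenchymal transition, 9 of 19 rose and 6 fell: Cdh2 (N-cadherin) rose 3.72-fold, Snai1 2.27-fold and Zeb1 2.24-fold, Epcam fell 1.62-fold and Esrp1, an epithelial splicing factor, 2.10-fold, and Cdh1 (E-cadherin) had a log2 fold change of 0.08 and did not pass.

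Among signalling pathways, BMP genes rose in 11 of 18 and fell only for Id1, with a median of 0.42. Bmp4 read 2.63, 2.59, 2.65 and 2.70 in Id1KO and 4.63, 4.72, 4.62 and 4.67 in the knockdown (4.04-fold; adjusted p = 1.3e-10). Bmp2 rose 7.39-fold (down to 2.83), the antagonist Grem1 6.89-fold, and the BMP target Id3 rose 3.50-fold, from 2.21, 2.06, 2.29 and 2.18 to 4.06, 4.04, 3.88 and 4.01. Of 20 Wnt pathway genes and targets, 12 rose and 4 fell, with a median of 0.33. The targets Sp5 (6.28-fold, down to 4.05) and Dkk1 (3.80-fold) and the ligands Wnt5a (4.54-fold, down to 2.82) and Wnt7b (5.35-fold, down to 2.06) rose, while Lef1 fell and the target Axin2 did not pass (log2 fold change 0.23; without Id1KO replicate 3 it was 0.41 and passed, as it did with the other scalings, at 0.20 to 0.66). Of 13 Notch genes 3 rose and 4 fell, and of 16 retinoic acid genes 11 rose and 2 fell. Hox genes, which Polycomb complexes silence in stem cells, showed no single direction: of 38 on the array, 31 passed the filter, and of these 15 were higher and 8 lower at the threshold. These include 2 genes dim in both groups, 4 above background only in the knockdown and 1 only in Id1KO. Hoxa11 rose 4.82-fold (down to 1.93, with 1 of 4 Id1KO arrays above background), and Hoxb4 fell 2.20-fold.

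Genes tied to the known roles of Zrf1 moved modestly. Of 31 Polycomb subunits and associated demethylases, 14 rose, 4 of them at least 2-fold, and 8 fell, with a median of 0.14. Phc2 and Pcgf5, subunits of complex 1, rose 2.22- and 2.15-fold, while Phc3 and Phc1 fell 1.98- and 1.74-fold, and Ezh2, the methyltransferase of complex 2, did not pass (log2 fold change -0.03). Among 15 chaperones and ribosome-associated partners, Dnajc2 itself fell, and of the others 8 rose and 3 fell. Hspa14, the Hsp70 partner of Zrf1 at the ribosome, had a log2 fold change of 0.18 (adjusted p = 0.029), and this call was lost without Id1KO replicate 1 or 3 or without Id1KO_Zrf1KD replicate 2 or 3 (adjusted p of 0.055 to 0.081). The inducible Hsp70 gene Hspa1a rose 2.46-fold, and the nascent chain binders Naca and Btf3 had log2 fold changes of -0.52 and -0.56. These are 1.44- and 1.48-fold, and the smallest folds under any scaling were 1.14 and 1.23. Cytosolic ribosomal protein genes were lower in the main scaling, with 50 of 52 past the test and a median of -0.56, but the median was between -0.05 and -0.03 with the other scalings. The median of the proteasome list changed sign, from -0.17 to between 0.08 and 0.11. Of 35 mitochondrial ribosomal proteins, 20 fell and 5 rose, with a median of -0.20 in the main scaling and -0.22 with quantile normalization.

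In the ATF4 and CHOP branch of the integrated stress response, 9 of 20 rose and 8 fell, beside 32.3% and 39.8% of all genes. Chac1, a glutathione-degrading target of this branch, read 4.25, 4.12, 4.15 and 4.16 in Id1KO and 1.48, 1.63, 1.47 and 1.55 in the knockdown (6.22-fold lower; adjusted p = 2.8e-11). Ddit3, which encodes CHOP, went from 1.65, 1.64, 1.74 and 1.71 to -0.77, -0.93, -1.06 and -0.89 (6.07-fold lower; adjusted p = 1.1e-10). Atf3, also an immediate early gene, rose 3.08-fold and Asns, asparagine synthetase, 1.68-fold. Of 21 heat shock and unfolded protein response genes, 16 rose and 2 fell, none by 2-fold, with a median of 0.51. Hspa1a, which rose 2.46-fold, stands in the chaperone list above and not in this list. Of 20 cholesterol synthesis genes, 17 rose and none fell, with a median of 0.53 (0.46 to 0.50 with the other scalings); Hmgcs1, an early enzyme of the pathway, rose 1.66-fold.

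Cell cycle inhibitors moved in opposite directions. Cdkn1a (p21) read 0.96, 0.98, 1.02 and 1.03 in Id1KO and 2.87, 2.67, 2.58 and 2.80 in the knockdown (3.33-fold; adjusted p = 3.3e-09), but its 2 other probes gave log2 fold changes of -0.06 and 2.60. Cdkn2a, of the Ink4a and Arf locus, rose 2.30-fold and its neighbour Cdkn2b 2.03-fold, while Cdkn1b (p27) fell 2.69-fold, from 1.32, 1.23, 0.97 and 1.14 to -0.31, -0.39, -0.15 and -0.21. The D cyclins Ccnd3 and Ccnd2 rose 2.66- and 2.62-fold. Genes of DNA replication and mitosis stayed within 2-fold: of 29 measured 12 rose and 7 fell, with a median of 0.08. Of 20 p53 targets, 12 rose and 1 fell, led by Plk2 (4.48-fold), Phlda3 (3.22-fold) and Mdm2 (2.07-fold), the last a feedback inhibitor of p53.

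**Figure D5:**
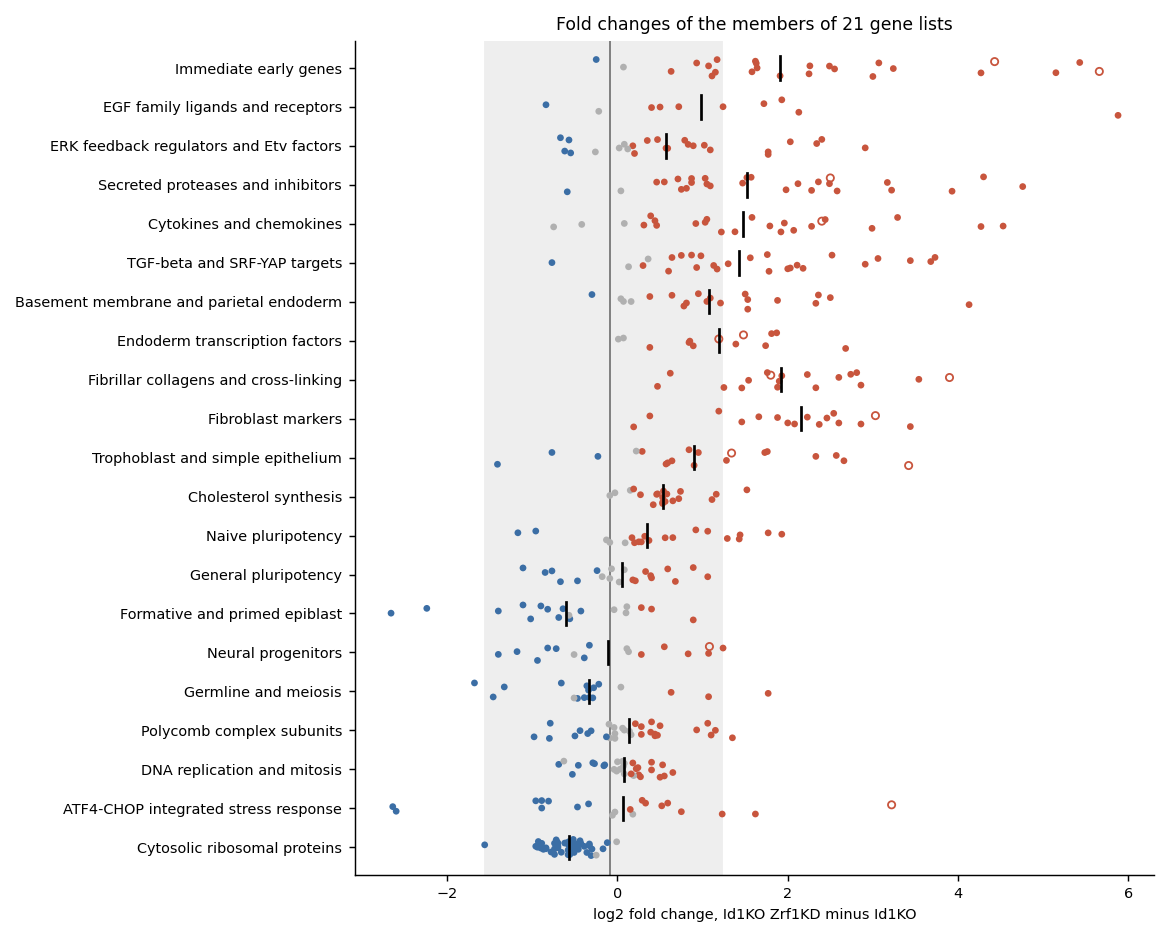
Log2 fold change (Id1KO_Zrf1KD minus Id1KO) of the measured members of 21 gene lists; each point is a gene, coloured where the adjusted p is under 0.05 (red higher, blue lower), open where it was undetected in Id1KO. Black ticks are list medians, the grey line is the median of all genes and the grey band holds their 5th to 95th percentiles. The immediate early, protease, collagen and fibroblast lists lie far to the right, the formative list to the left.

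Of 34 subunits of oxidative phosphorylation, 19 fell and 7 rose, and of 22 genes of glucose transport and glycolysis 13 fell and 3 rose, with medians of -0.16 and -0.17 that were -0.05 with quantile normalization. Bnip3, a mitophagy receptor on the glycolysis and hypoxia list, read 7.09, 7.03, 7.18 and 7.2 in Id1KO and 5.26, 5.23, 5.12 and 5.24 in the knockdown (3.77-fold lower; adjusted p = 1.7e-10). Of 20 aminoacyl-tRNA synthetases, 13 rose and 1 fell. Of 21 interferon-stimulated genes, 9 rose and 6 fell (all genes, 32.3% and 39.8%), and of 14 genes of MHC class I and antigen processing, 8 rose and 5 fell, with B2m, the light chain of class I molecules, 3.01-fold higher and the immunoproteasome subunit Psmb10 2.33-fold lower. Of 19 S100 proteins, annexins and galectins, 13 rose and 4 fell, and of 12 DNA methylation enzymes, 3 rose and 3 fell.

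Germline and imprinted genes closed the lists. Of 17 germline and meiosis genes, 12 fell and 3 rose, with a median of -0.34: Hormad1 and Sycp3, of the meiotic chromosome axis, fell 3.20- and 2.75-fold, and Dmc1, the meiotic recombinase, 2.52-fold, whereas Dazl rose 3.42-fold. Of 14 genes of the 2-cell-like state, 11 rose and 1 fell, with a median of 0.65; Zscan4c rose 1.62-fold. Among 25 imprinted genes, 12 rose and 10 fell, and members of 2 imprinted loci are given here. Meg3, a maternally expressed noncoding RNA, read 5.45, 5.32, 5.49 and 5.28 in Id1KO and 2.40, 2.30, 2.14 and 2.36 in the knockdown (8.49-fold lower; adjusted p = 4.6e-11), and Mirg, a further noncoding RNA there, fell 5.77-fold, whereas Dlk1, the paternally expressed gene of that locus, did not pass (log2 fold change 0.12). Igf2 and H19, of another locus, rose 4.61-fold (down to 2.29) and 3.03-fold.

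Of the genes with the lowest folds over the whole array, some were dim in the knockdown. NEAT2 (the array's name for Malat1), an abundant nuclear noncoding RNA, fell 12.8-fold by its brightest probe, from 3.14, 3.13, 3.25 and 3.31 to -0.54, -0.35, -0.51 and -0.48, and log2 fold changes of its 2 other probes were -3.70 and -3.69. Ovgp1, an oviduct glycoprotein, fell 9.13-fold (down to 5.75), Agfg2 7.40-fold (down to 3.12) and Slc25a27 6.82-fold (down to 2.76). Fut1, a fucosyltransferase that makes the H antigen, was not well above background on any knockdown array and at least 12.9-fold lower (down to 3.59). Klf15 fell 8.61-fold, but only 1.46-fold under the scaling that gave the smallest value, and its knockdown arrays read -7.23, -6.99, -4.53 and -7.09. At the other end, Esm1, an endothelial proteoglycan, was at least 15.1-fold higher (down to 4.87).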

How the data were processed

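Per the labels, one-colour (Cy3) arrays were hybridised with total RNA, from 100 ng, of mouse embryonic stem cells. Per the file headers, Feature Extraction 10.7.3.1 made the scanner files, which hold intensity values of 62976 spots on build mm9: raw signals and a processed signal that is corrected for background and spatial trend. The authors' deposited table holds log2 values; the median of each column is 6.55, and their normalization is not given in sources used here.

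From the scanner files, log2(processed signal) minus the array's 75th percentile was averaged per probe without outlier spots. A probe was kept if, in 1 group or more, 50% or more of its spots on each of the 4 arrays passed the scanner's test for being well above background, which 30879 of 55681 probes (controls left out) did; the brightest stood for each gene name (22590 genes). One limma 3.58.1 fit of all 12 arrays (R 4.3.3) with a mean per group gave moderated two-sided tests of Id1KO_Zrf1KD minus Id1KO, adjusted by Benjamini-Hochberg over all genes, with a threshold of 0.05. A bound raises each undetected value to the lowest level well above background on its array. The procedure was tested on simulated data, where it missed part of the 2-fold changes and more of the smaller ones; the share it had to recover was dropped as a criterion after that outcome, in favour of effect size and false calls. The number of arrays limits the precision.

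Members and the 49 gene lists were chosen with earlier results of these data known. Genes were named by rule: past the threshold, at least 2-fold and not overlapping, the 12 highest and lowest measured in both groups and the 5 largest bounds each way, the key genes and smallest adjusted p of each list, and fixed markers; further members and the promoters shown were chosen after their values were seen, and some list members are not reported here. Alternatives were 2 other normalizations, the deposited values, no dim filter, probe means, 8 arrays alone, slide and replicate blocks and leaving out each array.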

Additional observations from a re-analysis of the deposited data

Results flagged for a closer look

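A value is given here where 1 of the 4 arrays of a group stood apart from the other 3, with a gap to its nearest neighbour, as a share of the group's range, above Dixon's 95% critical value for 4 samples. Over 207 named genes and both groups there were 414 sets of values, and 26 (6.3%) met this, where chance gives about 5%. Sets with a missing value, as for Egr2 and Snhg11 in Id1KO, are among the 414 but could not be examined. Knockdown replicate 3, the only knockdown array on the third slide, held 14 of the 26, and no other array held more than 3. The part of the slide in these values was not tested.

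In knockdown replicate 3, log2 levels lay above the other 3 arrays for Fosl2 (0.73, next 0.55), Id1 (0.92, next 0.62), Klf15 (-4.53, next -6.99), Lce1g (-0.76, next -1.11), Lifr (1.91, next 1.71) and Snhg12 (3.04, next 2.81). They lay below the other 3 for Ccnd2 (2.01, next 2.11), Col4a1 (3.31, next 3.45), Hspa1a (0.43, next 0.66), Mirg (1.09, next 1.19), Sp5 (-0.13, next -0.09), Tdgf1 (5.32, next 5.4), Tead4 (-0.28, next -0.15) and Thy1 (3.87, next 4.05). In the other knockdown arrays, Pou5f1 was low in replicate 1 (5.58, next 5.78). Replicate 2 was low for Il11 (-0.25, next -0.15) and Mmp10 (0.74, next 0.80) and high for Lce1a2 (0.67, next 0.42). Snhg11 was high in replicate 4 (-0.98, next -1.13).

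Among the Id1KO arrays, replicate 1 was high for Dcn (-1.65, next -1.96) and low for Timp2 (2.36, next 2.45), and replicate 2 was low for Klf10 (4.23, next 4.36). Replicate 3 was low for Lama5 (4.31, next 4.57) and high for Osmr (-2.34, next -2.92). Replicate 4 was low for Atf3 (-0.28, next -0.19) and for Dusp5 (-5.35, next -4.15).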

How the results depend on the processing

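The counts of 7294 higher and 8988 lower genes stayed within 1.5 times under every alternative, but the excess of lower genes did not: 8035 were higher and 7676 lower with quantile normalization, with similar counts in the other 2 scalings. The counts of at least 2-fold changes, 1618 higher and 2978 lower, became 840 and 1098 with normexp and quantile normalization and 913 and 1147 with the authors' deposited values. Quantile normalization alone gave 1995 and 2201. The normexp correction used an offset of 50 units, whose part in these counts was not tested, and the cause of the other differences was not tested. Without the dim filter, 36406 genes were tested. Leaving out 1 array at a time gave 6977 to 7193 higher and 8569 to 8952 lower genes, 1588 to 1635 and 2910 to 3201 of them at least 2-fold, and a log2 fold change of Dnajc2 from -2.20 to -2.12. With the replicate number as a block (replicate block), 7086 genes were higher and 8702 lower, and no named gene changed its call. Arrays of 1 number did not deviate together (correlations of -0.23, -0.17, -0.32 and 0.08), but they also lay on different slides. Between the groups, the median correlation was 0.26 for arrays on the same slide and -0.13 for arrays on different slides. Whether the numbers pair samples therefore cannot be told. With the slide as a block, 7514 genes were higher and 9641 lower. Of the named genes, Sprr2a2 turned direction with quantile normalization (0.36), normexp (0.37), the deposited values (0.35) and the mean over its probes (2.47). Axin2 and Fgf5 passed the threshold with the 3 other scalings. Nanog missed it with the mean over its probes, and Dppa5a with the 3 other scalings. Hspa14 missed it without Id1KO replicate 1 or 3 or knockdown replicate 2 or 3. Lce1a2 missed it without Id1KO replicate 1 or 2 or knockdown replicate 1, 3 or 4, without the dim filter, with the 8 arrays alone and with the slide as a block. Jund passed it without Id1KO replicate 1, and Axin2 and Pou5f1 without Id1KO replicate 3. Signal over background limits some genes: 360 were above it on no Id1KO array and on all 4 knockdown arrays and 250 the other way round, and for these a bound stands in place of a fold.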

Other observations

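Some gene families outside the lists were picked after their values were seen, so their counts are descriptions, to be read beside the 32.3% of all genes that were higher and the 39.8% that were lower. Genes of the cornified envelope, the cross-linked shell of outer skin cells, were among them. Of 10 late cornified envelope (Lce) and small proline-rich (Sprr) genes measured, 8 were higher at the threshold. Of these 8, 5 (Sprr1a, Lce1h, Sprr2h, Lce1g and Lce1f) were above background on no Id1KO array and passed the filter through the knockdown. The filter therefore favoured a rise in them, and the count supports no direction for the family. Lce1f had no Id1KO array well above background, and the knockdown was at least 14.7-fold higher (down to 4.63), Lce1i rose 10.9-fold (down to 5.13) and Lce1c 6.73-fold (down to 2.93). The other 2 were lower, Lce1a2 with a log2 fold change of -0.18 and Sprr2a2 with one of -0.18 that was 0.36 with quantile normalization and 0.37 with normexp. Lor, which encodes the envelope protein loricrin, read -2.80, -2.89, -3.20 and -2.89 in Id1KO and 1.09, 1.14, 0.95 and 1.10 in the knockdown, groups that did not overlap (16.2-fold higher, down to 8.6).

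Of 47 histone genes whose names begin with Hist, 42 fell, 21 of them at least 2-fold, and 2 rose, with a median log2 fold change of -0.94 that was -0.54 with normexp and -0.81 with quantile normalization. Hist1h2bb fell 4.29-fold (down to 2.44), Hist2h2bb 3.58-fold and Hist1h3i 3.16-fold. Some of the brightest members kept almost none of their fall. Hist1h2an, Hist2h2ac and Hist1h2ag fell 1.48-, 1.46- and 1.42-fold, and their smallest folds under any scaling were 1.02, 1.01 and 1.01. Hist1h1b, also bright, fell 2.07-fold, with a smallest fold of 1.64. The count of 42 is therefore that of the main scaling. Genes of this family have near-identical copies, so a probe may take signal from more than 1 of them. The 6 measured transcripts with a NEAT, Snhg or Gas5 name fell, a set picked by name that leaves out other noncoding RNAs such as Meg3 and Mirg. Besides NEAT2 these were NEAT1 (6.06-fold), Snhg11 (6.30-fold), Gas5 (4.88-fold, with log2 fold changes of -0.88 and -0.17 for its other 2 probes), Snhg3 (2.25-fold) and Snhg12 (2.06-fold). Of 329 zinc finger genes whose names begin with Zfp, 179 fell and 71 rose, with a median of -0.29.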
